A study of Mus musculus with 6 samples.

Results

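The 10 genes described here belong to the surface and junctions of blood vessel endothelium: the junction proteins Cldn5, Cdh5 and Pecam1, the receptors Tek, Tie1, Kdr, Flt1 and Eng, the ephrin Efnb2 and the secreted protein Vwf. They were chosen by name, as all probe sets of the array whose platform annotation gives 1 of these symbols as the only gene, and 13 probe sets were found among 12422 that are not controls, which name 8251 genes in all. RNA came from whole uterus of 129/SvImJ wildtype females aged 10 to 16 weeks and ovariectomized 14 days before, so that no group had hormones from its own ovaries. Uninjected mice (0 h) were compared with mice killed 6, 12, 15, 18 or 24 h after 0.2 mg progesterone in 0.1 mL sesame oil under the skin. On each of the 6 arrays a pool of RNA from 4 mice (8 uterine horns) was measured, so no time has a replicate, and no mice given oil alone were analysed here. All differences from 0 h share that single array.

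Values are log2 expression per probe set, so a difference of 1 is a 2-fold change. A floor was set at 6.60, the 40th percentile of all values, and the 7731 probe sets above it on at least 2 arrays were analysed. Of the 13 probe sets, 11 passed, for 9 genes, and 8 were above the floor on all 6 arrays. The single Pecam1 probe set and 1 of 2 Flt1 probe sets did not pass. Array medians lay between 7.12 and 7.22. The 0 h array correlated at 0.932 to 0.948 with the others across probe sets, against 0.953 to 0.989 between progesterone arrays. The 0 h array was thus the least like the rest. It is the only uninjected sample, so the lack of an injection cannot be told apart from differences between pools or arrays. In whole tissue, fewer endothelial cells and less RNA per cell cannot be told apart. Levels of different probe sets are not ranked against each other as amounts of RNA, since probes differ in brightness. Summed levels of marker lists add unlike probe sets and are compared between arrays only.

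Endothelial cells line blood vessels and are held together by adherens junctions, whose cadherin is Cdh5, and by tight junctions, whose main claudin in endothelium is Cldn5. Vascular endothelial growth factors signal through the receptor tyrosine kinases Kdr and Flt1, and angiopoietins through Tek, with which Tie1 pairs. Eng is an accessory receptor for ligands of the TGF-beta family. Efnb2 is a membrane ligand of EphB receptors and marks arterial endothelium, but is made in other cell types too. The vessels of the uterus respond to ovarian steroids, with changes in permeability and growth over each reproductive cycle.

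Cldn5 and Efnb2 were lower on all 5 progesterone arrays than at 0 h, each by at least 2-fold at every time, while no probe set of the other 8 genes reached 2-fold at any time. Both fell in limma's comparison of the 5 progesterone arrays with the 0 h array, which takes its spread from the differences between times and assumes that the lone 0 h array varies like the others. Of the 11 probe sets tested, 2 fell and 0 rose at the 0.05 threshold after Benjamini-Hochberg adjustment, and the unadjusted p was under 0.05 for 3. Over all 7724 probe sets tested, 1.8% fell and 0.893% rose, 2.69% in all. The genes were listed with their results known, so the share that fell is a description.

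Cldn5, the tight junction claudin, stood at 10.13 at 0 h and at 9.08, 8.79, 8.84, 8.65 and 8.84 at 6, 12, 15, 18 and 24 h. The 0 h value lies above all 5 others, whose mean was 8.84 ± 0.15 (SD, n = 5 times). Put on the linear scale, the signal at 6 h was 48.2% of that at 0 h, and at the later times it lay between 36.0% at 18 h and 40.9% at 15 and 24 h. The mean difference was -1.29 ± 0.16 (SE; limma, 95% interval -1.67 to -0.91, adjusted p = 0.010). Most of the difference was present at 6 h, at -1.05, and the differences at 12, 15, 18 and 24 h were -1.34, -1.29, -1.47 and -1.29. Ordered from the lowest difference, Cldn5 held the places 72, 50, 58, 34 and 46 among the analysed probe sets at the 5 times. At least 2-fold lower than 0 h were 1.1%, 1.75%, 1.58%, 1.8% and 1.39% of all analysed probe sets at these times, and 1.41%, 1.83%, 2.05%, 1.14% and 1.06% were as much higher, with 0 members among the latter. Without the 12 h array Cldn5 did not pass, with a difference of -1.28 and an adjusted p of 0.058.

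Efnb2, the ephrin, stood at 10.47 at 0 h and at 9.26, 8.87, 8.86, 8.87 and 9.23 from 6 to 24 h. Its 0 h value was above all 5 others too, which had a mean of 9.02 ± 0.21 (SD, n = 5 times). The differences of -1.20, -1.60, -1.61, -1.60 and -1.24 were of like size from 12 to 18 h and smaller at 6 and 24 h. The linear signal was 43.4% of the 0 h signal at 6 h, 32.9% at 15 h and 42.4% at 24 h. The mean difference was -1.45 ± 0.20 (SE; limma, 95% interval -1.90 to -0.99, adjusted p = 0.013). It did not pass without 12, 15 or 18 h, with adjusted p of 0.065, 0.052 and 0.051 and differences of -1.41 in each case, nor with no filter on low values (adjusted p = 0.054). Its places from the lowest difference were 40, 28, 28, 24 and 51. Over all probe sets with values on every array, 0.443% were at least 2-fold lower at all 5 times and 0.339% as much higher, and Cldn5 and Efnb2 are among them.

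The promoters of the genes that fell are printed with that of Eng, which stayed near its 0 h level, so that the sequences at the start of these genes can be compared. RefSeq's promoter table (GRCm38.p6) held 7 of the 10 genes; the Cldn5 window is chr16:18776597-18776896 (plus strand), that of Efnb2 chr8:8661193-8661492 (minus strand) and that of Eng chr2:32646345-32646644 (plus strand). Each runs from 250 bases before to 50 bases after the annotated start, 5′ to 3′ along the gene. Capitals mark a CCAAT box, a GC box or an ETS core on either strand, whose letters are given after the sequences.
Cldn5: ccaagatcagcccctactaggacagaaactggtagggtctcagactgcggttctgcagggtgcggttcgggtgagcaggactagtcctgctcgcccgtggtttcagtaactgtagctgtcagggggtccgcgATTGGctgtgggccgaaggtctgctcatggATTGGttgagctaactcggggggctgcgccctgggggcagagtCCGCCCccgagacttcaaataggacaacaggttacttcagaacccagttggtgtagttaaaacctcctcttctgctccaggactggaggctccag
Efnb2: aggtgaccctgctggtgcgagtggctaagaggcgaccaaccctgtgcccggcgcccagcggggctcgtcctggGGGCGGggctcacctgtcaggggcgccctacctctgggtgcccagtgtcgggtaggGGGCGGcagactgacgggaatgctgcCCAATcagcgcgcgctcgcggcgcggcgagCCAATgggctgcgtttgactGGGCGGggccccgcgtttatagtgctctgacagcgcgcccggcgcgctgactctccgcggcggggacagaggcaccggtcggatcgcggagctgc
Eng: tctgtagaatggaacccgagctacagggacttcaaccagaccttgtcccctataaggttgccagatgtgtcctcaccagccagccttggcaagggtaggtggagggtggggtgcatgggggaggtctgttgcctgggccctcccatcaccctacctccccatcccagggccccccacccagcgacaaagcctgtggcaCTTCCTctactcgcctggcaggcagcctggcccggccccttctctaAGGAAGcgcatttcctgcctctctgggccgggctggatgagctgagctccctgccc

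The CCAAT box, which reads ATTGG on the other strand and is bound by the factor NF-Y, occurred 2 times in the Cldn5 and 2 times in the Efnb2 window and in 0 of the other 5 windows, against 37.4% of all 32851 promoters. The GC box (GGGCGG or CCGCCC), bound by Sp1-type factors, occurred 1 time in Cldn5 and 3 times in Efnb2, also in Kdr and Flt1, and in 35.7% of all promoters. Both were searched after the sequences had been seen. The ETS core AGGAAG or CTTCCT, bound by the ETS factors common in endothelium, was found in Eng, Flt1 and Tie1, 2 times each, and in 35.4% of all promoters. The steroid receptor motif AGAACA or TGTTCT was found in the Tek window alone and in 19.0% of all promoters. TGGGAA or TTCCCA, the core bound by the Notch effector Rbpj, occurred in Kdr and Tie1 and in 25.6% of promoters, and the forkhead motif TGTTTAC or GTAAACA in 0 of the 7 windows and 3.65% of promoters. These matches describe letters in short windows only; they show no binding.

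**Figure D1:**
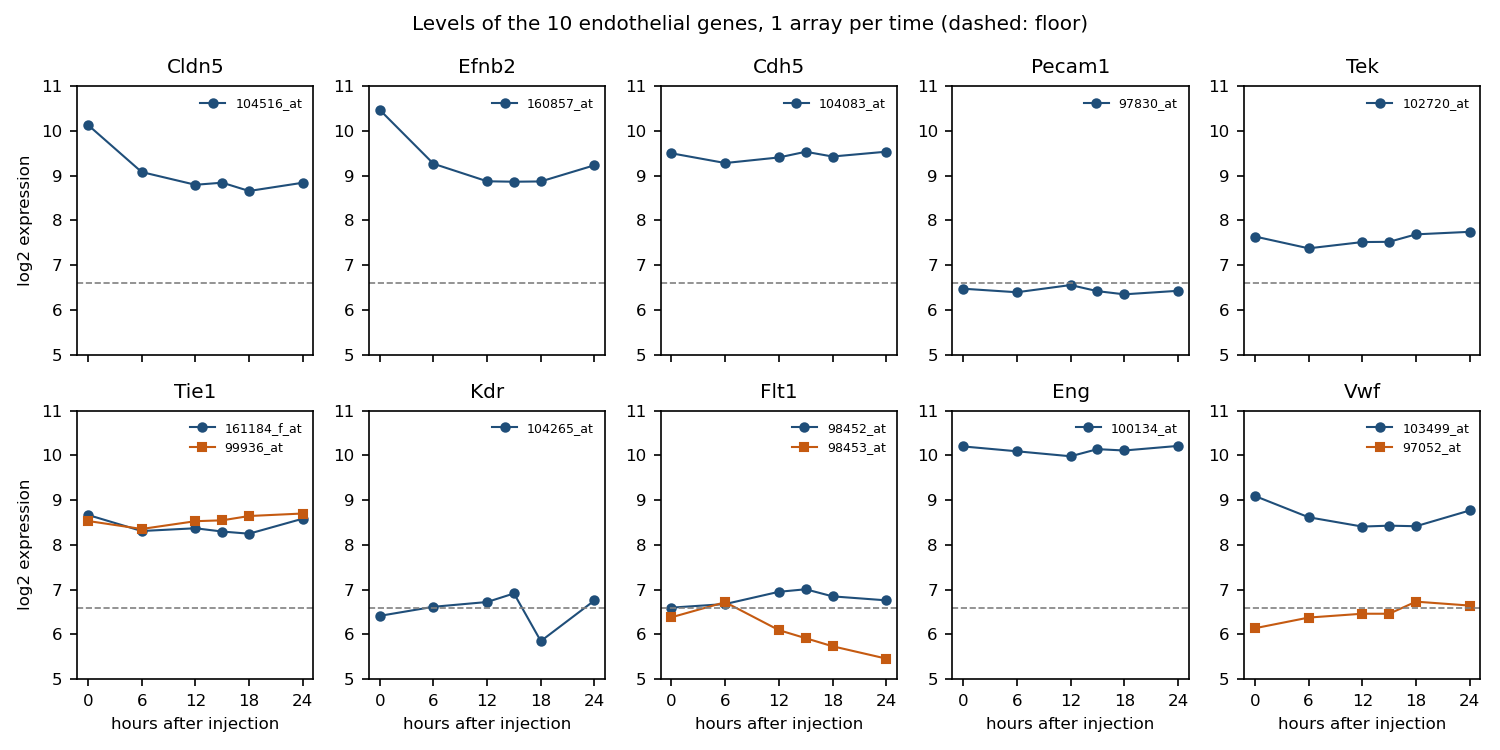
Log2 expression (vertical axes) of the 13 probe sets of the 10 genes against hours after injection (horizontal axes), 1 array per point, with the floor of 6.60 dashed. Cldn5 and Efnb2 drop between 0 and 6 h from 10.13 and 10.47 to 9.08 and 9.26; Pecam1 lies below the floor on every array.

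Of the other junction proteins, 1 stayed near its 0 h level and 1 was too dim to measure. Cdh5, the cadherin of endothelial adherens junctions, measured 9.50 at 0 h and 9.28, 9.40, 9.53, 9.42 and 9.53 from 6 to 24 h. The 0 h value lies inside the range of the progesterone arrays. Its mean difference was -0.06 ± 0.14 (SE; limma, adjusted p = 0.86), with a 95% interval of -0.38 to 0.25. Pecam1, the adhesion molecule CD31, lay between 6.35 and 6.55 on all 6 arrays, below the floor, so its single probe set gives no usable change. With the floor at the 20th percentile its difference was -0.04 ± 0.14 (SE; limma, adjusted p = 0.91). A defining marker of endothelium is therefore not above the floor here, while Cdh5, Tie1 and Eng were above it on all arrays.

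Among the receptors, Tek, which binds angiopoietins, measured 7.64 at 0 h and 7.37, 7.51, 7.52, 7.69 and 7.74 from 6 to 24 h. Its lowest value was at 6 h and its highest at 24 h, and 0 h lay between them. The mean difference was -0.07 ± 0.16 (SE; limma, 95% interval -0.45 to 0.30, adjusted p = 0.86). Tie1, its partner without a known ligand of high affinity, has 2 probe sets. The probe set 99936_at read 8.53 at 0 h and 8.35, 8.53, 8.55, 8.64 and 8.70 afterwards, with a mean difference of 0.02 ± 0.16 (SE; limma, adjusted p = 0.96). The other one, 161184_f_at, read 8.67 at 0 h and 8.31, 8.37, 8.30, 8.25 and 8.58 afterwards, with a mean difference of -0.31 ± 0.16 (SE; limma, 95% interval -0.67 to 0.06, adjusted p = 0.35). On this second probe set 0 h was above all 5 progesterone arrays, and on the other it lay within them. The suffix _f marks a probe set that the array maker designed for a family of related sequences.

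The VEGF receptors gave weak signals. Kdr, the main signalling receptor of VEGF, read 6.41 at 0 h, below the floor, and 6.62, 6.72, 6.91, 5.85 and 6.76 from 6 to 24 h. The 18 h array is low, and the other 4 progesterone arrays lie above 0 h. The mean difference with floored values was 0.12 ± 0.13 (SE; limma, adjusted p = 0.68), and differences from 0 h are limits. Flt1, which binds VEGF with high affinity but signals weakly, read 6.60 at 0 h, at the floor, and 6.68, 6.95, 7.01, 6.85 and 6.76 afterwards on 98452_at. All 5 progesterone arrays were above 0 h there, with a mean difference of 0.25 ± 0.14 (SE; limma, 95% interval -0.07 to 0.57, adjusted p = 0.38). The other Flt1 probe set, 98453_at, went from 6.38 at 0 h and 6.72 at 6 h to 6.09, 5.91, 5.73 and 5.46 at 12, 15, 18 and 24 h. It was above the floor at 6 h only. From 6 to 15 h the 2 probe sets moved in opposite directions, and from 15 to 24 h both went down. Under the lower floor of the 20th percentile its slope from 6 to 24 h was -1.24 ± 0.18 (SE; limma, adjusted p = 0.025), and its difference from 0 h was -0.40 ± 0.38 (adjusted p = 0.67). Which transcripts each probe set detects was not tested.

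Eng, the TGF-beta co-receptor endoglin, varied least of the members above the floor on every array. It read 10.20 at 0 h and 10.09, 9.98, 10.14, 10.11 and 10.21 from 6 to 24 h, an SD of 0.08 over the 5 times. The 24 h value was slightly above 0 h and the other 4 were below. Its mean difference was -0.09 ± 0.12 (SE; limma, 95% interval -0.38 to 0.19, adjusted p = 0.75).

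Vwf, the clotting glycoprotein stored in endothelial granules, lay between the genes that fell and the rest. On 103499_at it read 9.09 at 0 h and 8.62, 8.41, 8.43, 8.42 and 8.77 from 6 to 24 h. The 0 h value was above all 5 others, and the difference was smallest at 24 h, at -0.32, after -0.47, -0.68, -0.66 and -0.68. The mean difference of -0.56 ± 0.17 (SE; limma, 95% interval -0.96 to -0.17) had an unadjusted p of 0.011 and did not pass after adjustment (adjusted p = 0.13). The second probe set, 97052_at, was below the floor on 4 arrays, with 6.14 at 0 h and 6.37 to 6.73 afterwards. Its deposited values went the other way, above 0 h at all 5 times, and with floored values its mean difference was 0.03 ± 0.09 (SE; limma, adjusted p = 0.88). Megakaryocytes and platelets also make Vwf. Of 4 platelet genes with a probe set, Pf4, Gp1bb and Gp5 were at or below the floor on every array, and Gp9 read 7.14 at 0 h and 6.58 to 7.07 afterwards.

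With floored values, the 0 h array was above all 5 progesterone arrays for 4 of the 11 probe sets (Cldn5, Efnb2, Vwf on 103499_at and Tie1 on 161184_f_at), or 36.4%, and below all 5 for Flt1 on 98452_at. Over all probe sets 27.2% lay above all 5 and 20.4% below, 47.7% together, so this count by itself is near the background. What differed between the members was the size. The other 8 genes, each by its brightest probe set, had median differences of -0.14, -0.05, -0.02, -0.08 and 0.07 at the 5 times, against 0 to 0.05 in size for the median of all analysed probe sets. Set against that median of 8 genes, Cldn5 stood at -0.91 at 6 h and between -1.39 and -1.27 later, and Efnb2 at -1.06 at 6 h and between -1.59 and -1.31 later. The lowest of the other 11 probe sets at each time was at -0.47, -0.68, -0.66, -0.68 and -0.92, the last being the Flt1 probe set below the floor. Of the 9 other probe sets tested, none had a 95% interval that reached -1, the nearest bound being -0.96 for Vwf. The intervals of Cldn5 (-1.67 to -0.91) and Efnb2 (-1.90 to -0.99) both include -1, and that of Cldn5 overlaps that of Vwf. All these intervals hold the spread between times and nothing for the single 0 h array. The difference between genes was not tested itself: with 1 array at 0 h, an exact permutation of the lone array cannot give a p under 0.167.

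**Figure D2:**
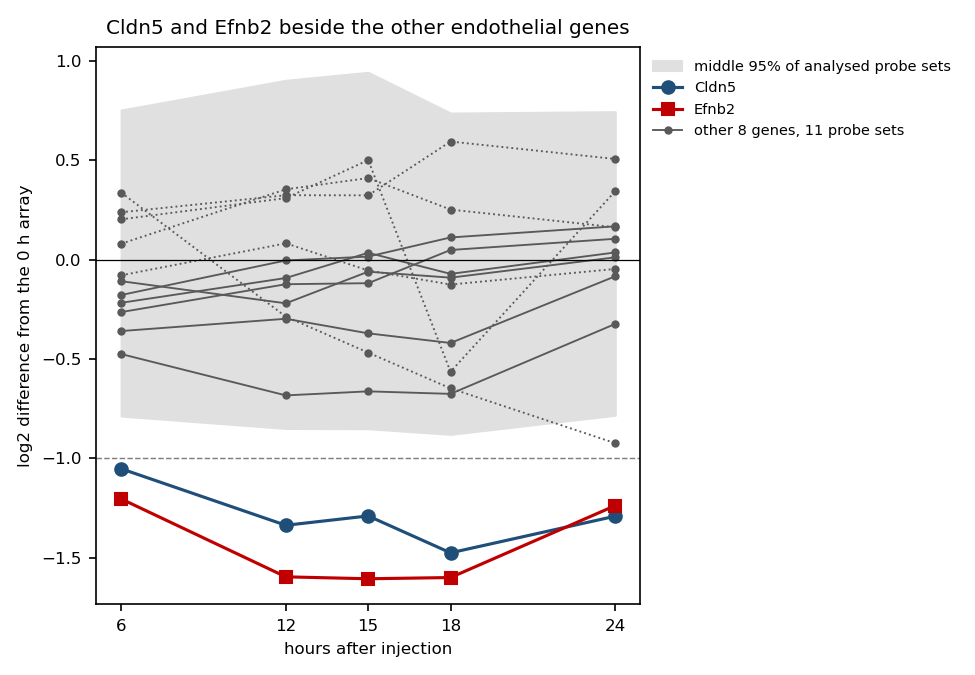
Log2 difference from the 0 h array (vertical axis) against hours after injection (horizontal axis) for Cldn5, Efnb2 and the 11 probe sets of the other 8 genes, dotted where a probe set was at or below the floor on at least 1 array; the grey band holds the middle 95% of analysed probe sets. Cldn5 (-1.05 to -1.47) and Efnb2 (-1.20 to -1.61) lie below the band at every time, and the other genes stay above -1.

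Changes within the progesterone arrays were examined apart from 0 h. A line over the hours from 6 to 24 h, fitted by limma to the 5 progesterone arrays alone and so free of the 0 h array, called 0 of the 11 probe sets, with 2 at an unadjusted p under 0.05. Over all 7731 probe sets 0.88% fell and 1.02% rose in this fit, 1.9% in all. The 2 were Tek, with a slope of 0.38 ± 0.14 from 6 to 24 h (SE; limma, adjusted p = 0.18), and Tie1 on 99936_at, with 0.35 ± 0.14 (SE; limma, adjusted p = 0.21). Cldn5 had a slope of -0.26 ± 0.18 (95% interval -0.66 to 0.15) and Efnb2 one of -0.03 ± 0.24 (95% interval -0.58 to 0.52). Without the 6 h array these became 0.02 and 0.56, and without the 24 h array -0.58 and -0.61 (limma, adjusted p = 0.23 and 0.24). A line cannot follow Efnb2, which went down by 0.39 from 6 to 12 h and up by 0.36 from 18 to 24 h; Vwf on 103499_at had steps of -0.21 and 0.35 over the same intervals.

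The ligands of these receptors were examined next, from lists of pathway genes. Of 8 genes of VEGF and angiopoietin ligands with a probe set, 5 were analysed, and 0 passed against 0 h, with a median mean difference of -0.24. Vegfa, the main ligand of Kdr and Flt1, read 7.56 at 0 h and 8.20, 7.70, 7.63, 7.28 and 6.99 from 6 to 24 h. It was above 0 h from 6 to 15 h and below from 18 h, and it fell over the hours on progesterone by 1.21 from 6 to 24 h (limma, adjusted p = 0.018). With any 1 progesterone array left out the slope was -1.30 to -1.14 and did not pass (adjusted p of 0.31, 0.098, 0.060, 0.10 and 0.076 without 6, 12, 15, 18 and 24 h). A higher floor, at the 60th percentile, gave -0.44 (adjusted p = 0.18). Vegfb, which binds Flt1, read 9.12 at 0 h and 8.71 to 8.86 afterwards, with a mean difference of -0.31 ± 0.12 (SE; limma, adjusted p = 0.23). Vegfc and Pgf were below the floor on all arrays.

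Angpt1, the activating ligand of Tek, read 6.96 at 0 h and 6.31 to 6.88 afterwards, with a mean difference of -0.24 ± 0.13 (SE; limma, adjusted p = 0.38). Angpt2, its context-dependent antagonist, read 7.03 at 0 h, 7.13 at 6 h and 6.56 to 6.67 from 12 h, with a mean difference of -0.30 ± 0.20 (SE; limma, adjusted p = 0.46). Angptl4, an angiopoietin-like inhibitor of lipoprotein lipase, read 8.50 at 0 h and 9.54, 9.21, 9.10, 9.30 and 8.75 afterwards on its brightest probe set, 2-fold higher at 6 h. Against 0 h it did not pass (0.68 ± 0.25, SE; limma, adjusted p = 0.20). A probe set of Angptl4 designed for a sequence family fell by 1.02 from 6 to 24 h (limma, adjusted p = 0.037), a call lost with any 1 progesterone array left out (adjusted p of 0.33, 0.13, 0.070, 0.11 and 0.13), while another was below 0 h at all 5 times. The VEGF co-receptor Nrp1 read 9.53 at 0 h and 9.57 to 9.82 afterwards, with a mean difference of 0.14 ± 0.13 (SE; limma, adjusted p = 0.63). Flt4, the VEGF receptor of lymphatic vessels, read 7.59 at 0 h and 7.15 to 7.41 afterwards (limma, adjusted p = 0.32). Nrp2 was not analysed here.

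Of 15 ephrin and Eph genes with a probe set other than Efnb2, 8 were analysed. Of these 1 fell and 0 rose, against 1.8% and 0.893% over all probe sets. Their median over the mean differences was -0.11. The one that fell was Efna1, an ephrin of the A class, from 7.57 at 0 h to 6.95 at 6 h and values below the floor at 12, 15, 18 and 24 h. Its mean difference of -0.90 ± 0.15 (SE; limma, adjusted p = 0.028) is a limit from floored values, whose equal levels can make the p too small. It did not pass with deposited values (-1.15, adjusted p = 0.077) or without 12, 15, 18 or 24 h (adjusted p of 0.10, 0.090, 0.084 and 0.065). Efnb1 and Efnb3, the other B-class ephrins, had mean differences of -0.02 ± 0.22 and 0.03 ± 0.20 (SE; limma, adjusted p = 0.97 and 0.955). Ephb3, a receptor of B-class ephrins, was above the floor at 0 h only, at 6.87, and Ephb4 and Ephb2 were not analysed here.

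Among 10 analysed partners of Eng in TGF-beta and BMP signalling 1 rose and 0 fell, against 0.893% and 1.8% over all probe sets. Their median was -0.10. Tgfbr3, the co-receptor betaglycan, was below the floor at 0 h and read 7.12 to 7.35 afterwards. Its floored mean difference was 0.68 ± 0.13 (SE; limma, adjusted p = 0.035), which did not pass without 12, 15, 18 or 24 h (adjusted p of 0.11, 0.10, 0.052 and 0.068), nor with no filter (0.0545). Acvrl1, the receptor with which Eng acts in endothelium, read 9.16 at 0 h and 9.04 to 9.26 afterwards on its brightest probe set, with a mean difference of -0.02 ± 0.13 (SE; limma, adjusted p = 0.96). Id3, a target of BMP signalling, went from 9.78 at 0 h to 8.47 at 18 h, a difference of -1.31 there, and did not pass over the 5 times (-0.82 ± 0.33, SE; limma, adjusted p = 0.23).

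Of 14 analysed Notch and arterial genes, 0 passed against 0 h, with a median mean difference of 0.02. The dimmer Notch1 probe set went from 8.65 at 0 h and 8.64 at 6 h to 7.78 at 24 h; it fell by 0.89 from 6 to 24 h (limma, adjusted p = 0.046). The call was lost with any 1 progesterone array left out (adjusted p of 0.36, 0.155, 0.086, 0.13 and 0.077), and the brighter Notch1 probe set had a slope of -0.52 (adjusted p = 0.11). Hey1, a Notch target, had a mean difference of -0.35 ± 0.22 (SE; limma, adjusted p = 0.46). The arterial connexins Gja4 and Gja5 were at 0.29 ± 0.17 and 0.12 ± 0.14 (SE; limma, adjusted p = 0.415 and 0.70). Notch4 was below the floor on all arrays, and Dll4 was not analysed here. Of 15 analysed partners in junctions and adhesion 0 passed (median -0.14), the lowest being Tjp1, the scaffold protein ZO-1 that binds claudins, from 10.19 at 0 h to 9.51 at 24 h (-0.58 ± 0.14, SE; limma, adjusted p = 0.076). Of 7 analysed tyrosine kinase signalling genes, Tek included, 0 passed (median -0.11).

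Other markers of endothelium were set beside the members. Of 28 such genes with a probe set 21 were analysed, and 0 passed against 0 h. Their median differences were -0.16, -0.21, -0.13, 0.00 and 0.02 at 6, 12, 15, 18 and 24 h. The highest were Tfpi, an inhibitor of coagulation, at 0.75 ± 0.22 with a floored 0 h value (SE; limma, adjusted p = 0.12), and the transcription factor Gata2 at 0.66 ± 0.25 (adjusted p = 0.205). Gata2 is also made by other cells of the uterus. The lowest were Sparcl1, a matrix-associated protein, at -0.68 ± 0.18, and the lipase Mgll at -0.63 ± 0.22 (SE; limma, adjusted p = 0.096 and 0.18). Cldn5 at -1.29 and Efnb2 at -1.45 thus lay below all 21. The members were listed with their results known, so this place is a description. The 21 hold no gene above the floor at 0 h only, such as Cxcr4, listed with the arterial genes. Cxcr4 read 7.67 at 0 h and 5.39 to 5.67 afterwards. Of the 21 markers, 7 were below 0 h at all 5 times and 5 above. Over all probe sets these shares were 27.2% and 20.4%. The median of the 21 mean differences was -0.15. The markers Cd34, Emcn and Ramp2, named after their values were seen, had mean differences of 0.14, -0.18 and 0.16, and do not stand for the whole list.

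**Figure D3:**
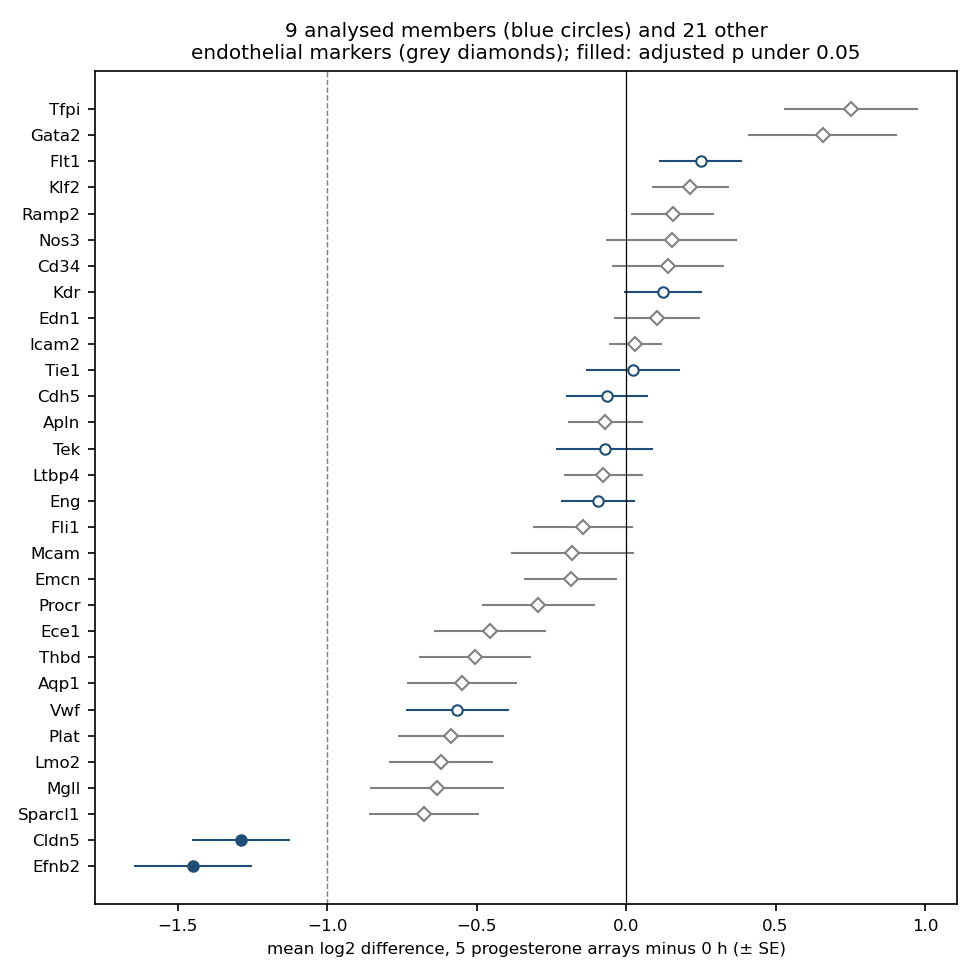
Mean log2 difference of the 5 progesterone arrays from 0 h (horizontal axis, bars are the SE from limma) for the 9 analysed members and 21 other endothelial markers (vertical axis, 1 probe set per gene). The filled circles, Cldn5 at -1.29 and Efnb2 at -1.45, are the genes with an adjusted p under 0.05; the next lowest is Sparcl1 at -0.68.

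Markers of other cell types moved on the same arrays. Of 11 analysed markers of uterine epithelium 3 fell and 8 were below 0 h at all 5 times, with list medians between -0.45 and -0.39. Over all probe sets 1.8% fell and 27.2% were below 0 h at all 5 times. Epcam, Krt18 and Ltf fell by 1.12, 1.03 and 1.58 (limma, adjusted p = 0.010, 0.024 and 0.035), while Cldn3 and Cldn7, claudins of epithelium, were the highest, at 0.43 (limma, adjusted p = 0.13) and 0.15. Krt18 and Ltf did not pass without 12, 15, 18 or 24 h (adjusted p of up to 0.097 and 0.12), nor with no filter on low values (0.063 and 0.148). The summed linear level of the 11 epithelial markers was 11162 at 0 h and 7870 to 9314 on the progesterone arrays. That of the 28 other endothelial markers was 17455 and 14397 to 15385. Bright probe sets weigh most in such sums, among them Sparcl1, at 11.95 at 0 h and 11.07 to 11.60 afterwards. The median differences of the analysed endothelial markers lay between -0.21 and 0.02. Pericyte markers summed to 2614 at 0 h and 2062 to 2609 afterwards, lymphatic markers to 753 and 508 to 627, leukocyte markers to 2463 and 1785 to 2153, with Prox1, Pdgfrb and Ptprc below the floor on all arrays. Red blood cell markers summed to 3210 at 0 h and 2521 to 4104 afterwards, and stroma markers to 12761 and 12430 to 16492. The stroma genes moved in different directions. Col1a1 and Col3a1 had the highest mean differences, 1.30 and 0.83, and Lum and Dcn the lowest, -0.40 and -0.25. These means hide changes over time: Lum went from -1.22 at 6 h to 0.22 at 24 h, and Col1a1 from 0.51 to 1.79. The median of the 5 analysed stroma genes was 0.02. Smooth muscle markers with a value on every array summed to 13543 at 0 h and 12596 to 18166 afterwards. The part of these shifts in the difference of Cldn5 and Efnb2 was not tested.

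The genes most like Cldn5 and Efnb2 were taken as those with the smallest root mean square distance between their 5 differences from 0 h, among 6155 other probe sets above the floor on all arrays and with 1 symbol. For Cldn5 these were Adra2c (0.11), AW112010 (0.14), Lox (0.14), Mbp (0.15) and Vamp4 (0.16). Efnb2 came 7th for Cldn5, at 0.20. For Efnb2 the nearest was Lifr (0.12), followed by Cldn5 (0.20), Capg (0.20), Igkv4-68 (0.21) and Adra2c (0.23). Their correlation with the reference gene over the 6 arrays was between 0.95 and 0.98, in which all points share the 0 h array. Adra2c, an adrenergic receptor, was at -0.94 at 6 h and -1.30 to -1.48 later, and Lifr, the receptor of leukemia inhibitory factor, between -1.33 and -1.63. None of the other 8 endothelial genes was among these neighbours. That follows from their smaller differences from 0 h, and Pecam1, Kdr and Flt1 were not candidates because of the floor.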

How the data were processed

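Total RNA of 6 pooled uterine samples was hybridised to 1 array each, and the authors deposited 1 value per probe set, which the values themselves show to be on a log2 scale. How the background was corrected and arrays were scaled, and with which software: not given in the sources used here. The number of arrays limits the precision. Genes were named through the platform annotation, which gives 1 symbol to 10833 probe sets, several to 396 and none to 1193; those with several or none were not named.

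Values were floored at the 40th percentile (6.60, or 96.9 on the linear scale) and kept where above it on at least 2 arrays. Levels printed are the deposited ones, and differences of values at the floor are limits. With R 4.3.3 and limma 3.58.1 (lmFit, eBayes with a trend), the 5 progesterone arrays were compared with the 0 h array, with 4 residual degrees of freedom, and a line was fitted over 6 to 24 h, with 3. P-values were adjusted by Benjamini-Hochberg over all probe sets tested, with a threshold of 0.05. The fits were tested on simulated data. Of 100 probe sets changed by 1 log2 unit, 75 were recovered against 0 h and 47 in the slope fit. With a change of 2 these were 97 and 86, and the fits made 12 and 8 false calls. The simulated 0 h array was given the spread of the progesterone arrays, so the assumption that it varies like them was not tested. Times serve as replicates, so a p measures the spread between times and pools, and nothing on the 0 h side. Where a gene has several probe sets, the brightest stands for it in lists and all are given for the members.

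The rule for named genes took all members, their ligands and receptors, pathway genes that passed or were 2-fold from 0 h on an array, the 2 highest and 2 lowest of each marker list, and the 5 genes most like Cldn5 and Efnb2. Marker lists other than endothelium, epithelium and stroma are given by their sums only. Flt4, Efnb1, Efnb3, Hey1, Gja4, Gja5, Tjp1, Cd34, Emcn, Ramp2, Krt18, the platelet genes and the genes of the closing section were named after their values were seen. The members and lists were chosen with earlier results of these data known, and the CCAAT and GGGCGG motifs were added after the promoter sequences were seen. Alternatives were floors at the 20th and 60th percentile, no floor, no filter, quantile normalization, centring on array medians, eBayes without a trend, leaving out each array, and other reference arrays for the 2-fold counts.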

Additional observations from a re-analysis of the deposited data

Results flagged for a closer look

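The 18 h array gave Kdr a value of 5.85, far below the 6.62 to 6.91 of the other 4 progesterone arrays. Its gap to the next value is a share of 0.720 of the whole range, above Dixon's critical value for 5 values. Chance alone marks about 1 in 20 groups in this way, and all 13 member probe sets were examined, with Kdr alone marked. With values floored at 6.60 the same array no longer stands apart.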

How the results depend on the processing

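Cldn5 kept its call in 11 of 12 alternatives (mean difference -1.35 to -1.24) and Efnb2 in 8 of 12 (-1.51 to -1.41). The cause of the lost calls was not tested. With no filter on low values 1 member was called against 0 h in place of 2, and with 1 array left out 0 to 2. Over all probe sets, leaving out 1 array gave 29 to 334 lower calls (139 with all arrays) and 13 to 256 higher ones (69 with all arrays), and no filter gave 22 higher. With no filter the slope calls of Vegfa, Angptl4 and Notch1 were lost too (adjusted p of 0.22, 0.22 and 0.24), as was the call of Efna1 (0.086), which was also lost with the floor at the 20th percentile (0.095). Over the hours on progesterone, the floor at the 20th percentile called 1 member, Flt1 on 98453_at. There the lower calls (68) became 27 with the 60th percentile floor, 128 with no floor, 0 with no filter and 128 with quantile normalization, and 0 to 21 with 1 array left out. The higher calls (79) became 44, 157, 0 and 123, and 0 to 15. Against the median of the other 4 progesterone arrays in place of 0 h, 0 members were 2-fold lower at every time, against 2 with 0 h; that reference leaves out the 0 h contrast, so the count follows from its construction and does not bear on the processing. No paired analysis was possible because each time has 1 array and the labels carry no replicate numbers.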

Other observations

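Cxcr4, a chemokine receptor of leukocytes and endothelium, was above the floor at 0 h only and so was not among the analysed probe sets. It was chosen after its values were seen. It read 7.67 at 0 h and 5.39 to 5.67 on the progesterone arrays, where 5.39 is the lowest value the deposited table holds, so the difference is a limit. With the floor at the 20th percentile its mean difference was -2.23. Pdpn, a glycoprotein of lymphatic endothelium and stroma, was chosen in the same way. It read 7.13 at 0 h and 6.03 to 6.39 afterwards, with a mean difference of -0.99 under the same lower floor. Both genes were picked for a high 0 h value, so no p is given for them. Above the floor only at 0 h were 110 probe sets, of which 5, Cxcr4 among them, were at least 2-fold above it there.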
